A study of Mus musculus with 8 samples.

Results

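RNA-seq values of 10 genes were examined in 4 lines of stimulated mouse EL4 cells. The genes were the immediate early factors Egr1, Egr2, Egr3, Nr4a1, Nr4a2 and Nr4a3, the calcium-regulated factors Nfatc1, Nfatc2 and Nfatc3, and Rcan1, an inhibitor of calcineurin. They were chosen by symbol as genes of the calcium response, from 54146 genes in the deposited values. No measured value entered that rule, but earlier results of these data were known when the genes were chosen. EL4 is a T lymphoblast line from a C57BL/6 mouse. Every line was a retrovirally transduced and selected derivative. The GFP + Plum line carried only the 2 control fluorescent proteins, the T-bet + Plum line carried FLAG-T-bet and Plum, the GFP + GATA3 line carried GFP and HA-GATA3, and the T-bet + GATA3 line carried both factors. All 4 received PMA at 50 ng/ml with ionomycin at 1 µM for 4 h before RNA extraction. For each line 2 libraries were analysed here, 8 in all, and the study's methods define replicates as harvests on different days. The study gives a higher replicate number for its RNA-seq, and any further library was not analysed here. Since every condition was 1 line, a difference between lines that arose during selection and an effect of the introduced factor cannot be told apart. The 8 libraries were all stimulated, so the values are levels after stimulation and not fold induction. The question of whether the lines responded equally could therefore be addressed only as whether their levels at 4 h were equal.

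Ionomycin raises cytosolic calcium, which activates calmodulin and the phosphatase calcineurin. Calcineurin dephosphorylates NFAT proteins, which then enter the nucleus. PMA activates protein kinase C and RasGRP, and through them the ERK pathway. Egr and Nr4a genes are switched on early in this response, downstream of the T cell receptor in normal T cells, and both families have been tied to the restraint of T cell activation. Rcan1 is itself an NFAT target and feeds back on calcineurin.

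The libraries held between 8038565 and 16003519 estimated counts. Tbx21, which encodes T-bet, was at 0.755 to 1.71 TPM, kallisto's length-corrected share of the library, in the 4 libraries without FLAG-T-bet and at 52.4 to 70.2 TPM in the 4 with it. Gata3 was at 11.4 to 27.6 TPM without HA-GATA3 and at 138 to 300.0 TPM with it, so both checks followed the labels. Within each GATA3 state, however, Gata3 was lower with FLAG-T-bet. It was at 138 to 164 TPM in T-bet + GATA3 against 263 to 300.0 TPM in GFP + GATA3. Without HA-GATA3 it was at 11.4 to 20.5 TPM in T-bet + Plum against 24.8 to 27.6 TPM in GFP + Plum. Lines that differ in FLAG-T-bet were therefore not at an equal Gata3 level. The 8 T cell markers summed to between 934 and 1250.1 TPM, with at most 1 of them at 0 in any library. The 4 B cell markers summed to at most 0.258 TPM and the 4 myeloid markers to 0.0798 to 0.737 TPM. The 4 fibroblast markers summed to 0.0225 to 0.650 TPM, and the fibroblast marker Dcn had no count in the 4 libraries without HA-GATA3. In bulk RNA, fewer cells that express a gene and less RNA per cell cannot be told apart.

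After stimulation, 4 of the 10 genes were higher in the lines with FLAG-T-bet than in those without it, namely Nr4a3, Nr4a1, Egr2 and Egr1. The 4 libraries with FLAG-T-bet were compared with the 4 without it in edgeR's quasi-likelihood test over all genes, called at an adjusted p (FDR) of at most 0.05. Across all genes tested, 15.2% were called in this comparison and 8.55% were called higher. Nr4a3 rose most, to 6.93 times the level without FLAG-T-bet. Nr4a1 rose 2.95-fold, Egr2 rose 2.03-fold and Egr1 rose 1.87-fold. None of the 3 Nfatc genes and not Rcan1 passed the test. The median log2 FC of the 10 genes was 0.76, against 0.02 over all genes tested. In CPM (counts scaled to TMM-corrected library size), the FLAG-T-bet libraries lay wholly above the others for 5 of the 10 genes, the called ones and Nfatc2, against 12.5% of all genes. A 3-degree-of-freedom test of any difference between the 4 lines called Egr1, Egr2 and Nr4a3, against 7.42% of all genes.

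**Figure D1:**
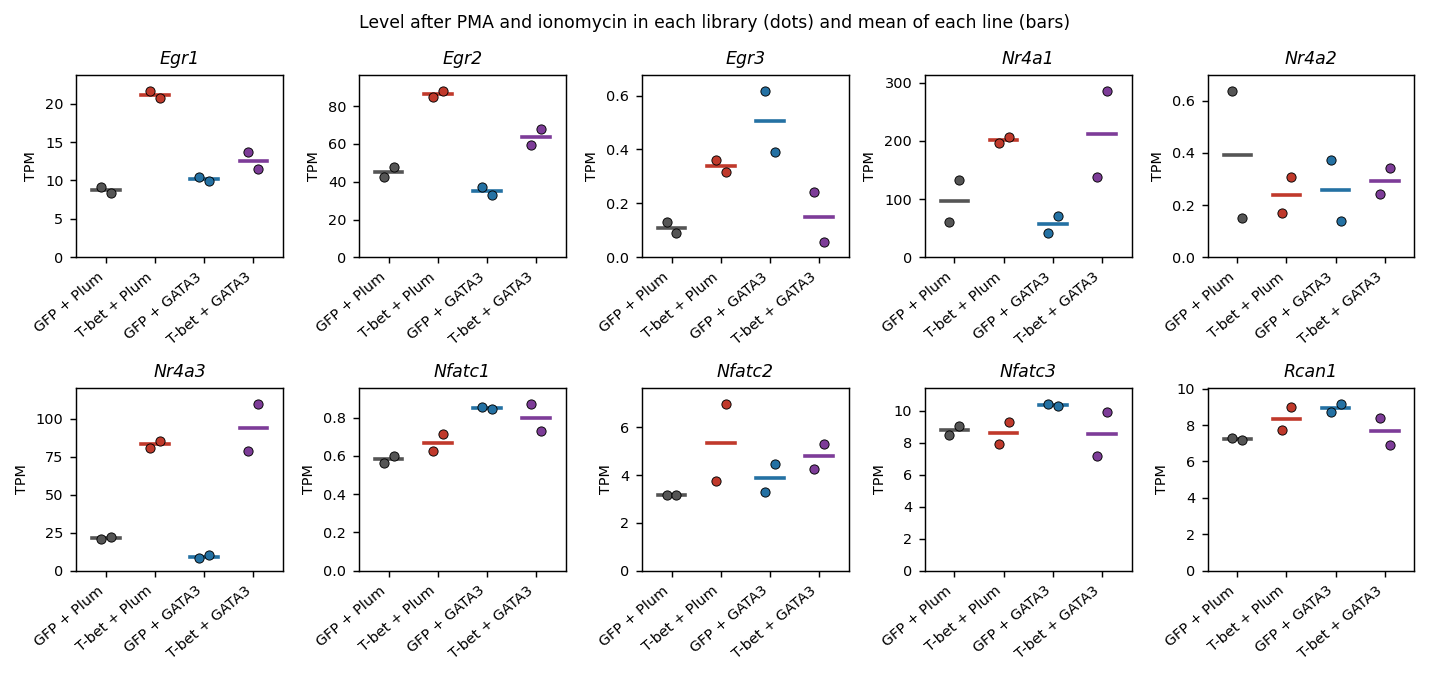
Level of each of the 10 genes after stimulation, in TPM on a linear axis from 0, in the 4 lines. Dots are libraries and bars are line means (n = 2). The red and purple FLAG-T-bet dots of Nr4a3 lie between 78.8 and 110 TPM and the other dots between 8.13 and 22.2 TPM.

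TPM corrects for transcript length, so levels can be set side by side within the control line. In GFP + Plum, Nr4a1 had the highest level at 96.8 ± 50.9 TPM (SD, n = 2), followed by Egr2 at 45.2 ± 3.53 TPM and Nr4a3 at 21.5 ± 1.05 TPM. Egr1 at 8.80 ± 0.512 TPM, Nfatc3 at 8.76 ± 0.404 TPM and Rcan1 at 7.22 ± 0.0703 TPM came next, and the libraries of Egr1 and Nfatc3 overlapped. Nfatc2 was at 3.17 ± 0.00125 TPM. Nfatc1, Nr4a2 and Egr3 were each under 1 TPM, and the libraries of Nfatc1 and Nr4a2 overlapped. The other neighbours in this order did not overlap, though each had 2 libraries only.

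The NR4A genes encode orphan nuclear receptors that bind DNA without a known hormone. Nr4a1, also called Nur77, is widely used as a reporter of antigen receptor signalling, and Nr4a3, also called Nor1, is induced by the same signals. The CRE half-site, the letters TGACG, is bound by CREB and related factors that calcium signals activate. The sequences upstream of the 3 NR4A genes are shown because the 3 genes differed widely in RNA level and the windows share this motif. Capitals mark the half-sites on either strand, and every sequence is from the RefSeq promoter table of GRCm38.p6, in which 7 of the 10 genes had an entry. The Nr4a1 window is chr15:101266596-101266845 on the plus strand. The Nr4a2 window is chr2:57124004-57124253 on the minus strand. The Nr4a3 window, chr4:48045055-48045152 on the plus strand, was cut to 98 bases where the Gencode gene begins. All 3 lie directly upstream of an annotated start of their gene and overlap no annotated exon. For Nr4a2 and Nr4a3 that start is not the start of the transcript with the most estimated counts, which lies further downstream.
Nr4a1: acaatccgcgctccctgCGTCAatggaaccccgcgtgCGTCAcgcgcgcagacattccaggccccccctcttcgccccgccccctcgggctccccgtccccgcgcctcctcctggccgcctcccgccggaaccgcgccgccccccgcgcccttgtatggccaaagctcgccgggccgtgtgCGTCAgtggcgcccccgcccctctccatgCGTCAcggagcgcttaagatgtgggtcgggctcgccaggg
Nr4a2: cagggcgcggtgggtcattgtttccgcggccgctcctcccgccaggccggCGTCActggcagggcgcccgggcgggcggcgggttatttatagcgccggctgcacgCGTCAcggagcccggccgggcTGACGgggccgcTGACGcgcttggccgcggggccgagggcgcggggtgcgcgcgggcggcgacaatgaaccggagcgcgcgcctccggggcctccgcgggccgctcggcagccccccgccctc
Nr4a3: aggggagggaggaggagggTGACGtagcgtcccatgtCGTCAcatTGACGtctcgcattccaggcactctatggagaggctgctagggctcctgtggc
The Nr4a1 and Nr4a2 windows each held 4 half-sites, a number that 0.137% of 32851 windows reached of 250 bases, and 17.8% held at least 1. The Nr4a3 window held 3, which 0.0274% of windows reached over their first 98 bases, the part farthest from the RefSeq start. The T-box letters GGTGTGA and the GATA letters AGATAA occurred in none of the 3 windows on either strand. Over all windows of 250 bases, 3.33% held the T-box letters and 9.99% the GATA letters. An absence says only that these letters are not in these windows.

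Nr4a3 had the widest range of the 10 genes as a ratio, with the highest library at 13.5 times the lowest. It was at 20.7 and 22.2 TPM in GFP + Plum, 81.0 and 85.5 TPM in T-bet + Plum, 8.13 and 10.1 TPM in GFP + GATA3, and 78.8 and 110 TPM in T-bet + GATA3. Both libraries of each FLAG-T-bet line were above all 4 others, and GFP + GATA3 was the lowest line. Against GFP + Plum, Nr4a3 rose in T-bet + Plum with a log2 FC of 2.10 ± 0.17 (SE, edgeR FDR 0.00043). Against GFP + GATA3, it rose in T-bet + GATA3 with a log2 FC of 3.48 ± 0.18 (edgeR FDR 7.1e-05). These comparisons share no library. The difference between them, tested as the interaction of the factors, was 1.38 ± 0.23 on the log2 scale and missed the threshold (edgeR FDR 1.00, unadjusted p 0.000312), while DESeq2 called it (FDR 0.000476). GFP + GATA3 had a log2 FC of -1.13 ± 0.17 against GFP + Plum, which also missed the threshold in edgeR (FDR 0.144) and passed in DESeq2 (FDR 3.1e-06). T-bet + GATA3 and T-bet + Plum differed by 0.25 ± 0.16 (edgeR FDR 1.00).

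Nr4a1 was at 60.8 and 133 TPM in GFP + Plum, 195 and 207 TPM in T-bet + Plum, 42.5 and 70.6 TPM in GFP + GATA3, and 138 and 285 TPM in T-bet + GATA3. The FLAG-T-bet libraries were all above the others, but the lowest of them and the highest of the others were only 138 and 133 TPM. These are a first and a second library, and in each line the second library was above the first. Among first libraries, the FLAG-T-bet lines were at 138 and 195 TPM and the others at 42.5 and 60.8 TPM. Among second libraries, they were at 207 and 285 TPM against 70.6 and 133 TPM. No label says whether same-numbered libraries share a harvest day. A shift shared by same-numbered libraries was allowed for only in an alternative fit, with the replicate number as a block. The counts of calls from that fit are given below, but its values for Nr4a1 alone are not. The 2 libraries of a line differed more for Nr4a1 than for Nr4a3 in each line, though by little in T-bet + Plum when taken as a ratio. Nr4a1 rose with FLAG-T-bet over both GATA3 states with a log2 FC of 1.56 ± 0.33 (edgeR FDR 0.0165). That call was lost without the first GFP + GATA3 library (FDR 0.0562) or the second T-bet + Plum library (FDR 0.0616). Within the GATA3 state, Nr4a1 rose in T-bet + GATA3 against GFP + GATA3 with a log2 FC of 2.06 ± 0.48 (edgeR FDR 0.0444), and this was lost without any 1 of 6 libraries. T-bet + Plum against GFP + Plum gave 1.05 ± 0.46 (edgeR FDR 0.262), and the interaction was 1.01 ± 0.65 (edgeR FDR 1.00).

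Nr4a2, the third receptor of the family, was barely detected. Its estimated counts were 5 and 8 in GFP + Plum, 3 and 14 in T-bet + Plum, 8 and 3 in GFP + GATA3, and 8 and 11 in T-bet + GATA3, or 0.141 to 0.636 TPM. The lines overlapped. It passed the filter on low counts through 4 of the 8 libraries. Its log2 FC with FLAG-T-bet was 0.80 ± 0.53 (edgeR FDR 0.371), and differences of that size were not detectable at this depth. Mean TPM went the other way without HA-GATA3, at 0.239 in T-bet + Plum against 0.393 in GFP + Plum. With HA-GATA3 it went the same way, at 0.293 in T-bet + GATA3 against 0.256 in GFP + GATA3.

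Nr4a3 has annotated coding transcripts with an upstream and a downstream start. The downstream transcript took 44.9% and 51.9% of Nr4a3 TPM in GFP + Plum, 53.0% and 49.4% in T-bet + Plum, 40.6% and 41.9% in GFP + GATA3, and 54.3% and 50.3% in T-bet + GATA3. With FLAG-T-bet the share was 51.7% ± 2.29 and without it 44.8% ± 5.05 (SD, n = 4 each). The difference of 6.93 points missed the threshold in a two-sided exact permutation test (p = 0.0857, adjusted p = 0.257 over the 3 shares tested, with 0.0286 the smallest p that 4 against 4 libraries allow). Both coding transcripts were higher in all FLAG-T-bet libraries than in any other. This share was chosen after its values were seen.

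**Figure D2:**
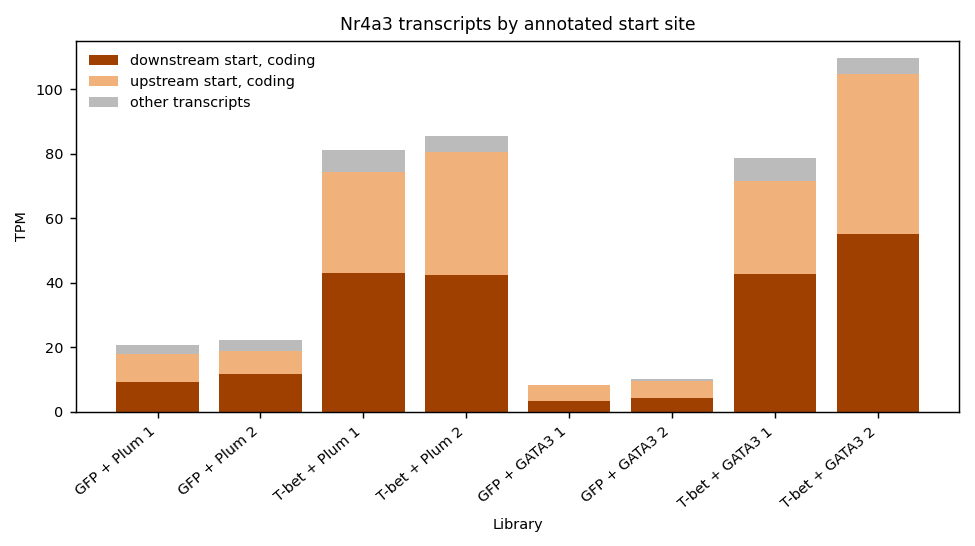
Nr4a3 TPM in each library, on a linear axis from 0, divided by annotated transcript start. Dark segments are the downstream coding transcript, light segments the upstream coding transcript and grey segments the rest. Both coding segments are taller in all 4 FLAG-T-bet libraries, and the dark share stays between 40.6% and 54.3%.

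EGR proteins are zinc finger factors that bind GC-rich sites. Egr1 is induced through ERK and SRF, and Egr2 and Egr3 are NFAT targets with roles in T cell anergy. Egr2, at chr10:67535475-67542188, was at 42.7 and 47.7 TPM in GFP + Plum, 84.9 and 87.9 TPM in T-bet + Plum, 37.4 and 33.1 TPM in GFP + GATA3, and 59.3 and 68.1 TPM in T-bet + GATA3. T-bet + Plum was highest, T-bet + GATA3 next, and the FLAG-T-bet libraries overlapped no other. Egr2 rose with FLAG-T-bet by a like amount in both GATA3 states, with log2 FCs of 0.98 ± 0.14 against GFP + Plum (edgeR FDR 0.00568) and 1.05 ± 0.14 against GFP + GATA3 (edgeR FDR 0.00442). The interaction was 0.07 ± 0.19 (edgeR FDR 1.00). Each of these 2 calls was lost without 1 library, the first without the second T-bet + Plum library (FDR 0.0575) and the second without the second GFP + GATA3 library (FDR 0.0633). T-bet + GATA3 against GFP + Plum gave 0.63 ± 0.14 (edgeR FDR 0.0390), a call that was lost without any 1 of 7 libraries. The HA-GATA3 line against GFP + Plum gave -0.42 ± 0.14 (edgeR FDR 0.976), and T-bet + GATA3 against T-bet + Plum gave -0.36 ± 0.14 (edgeR FDR 1.00).

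The window upstream of the most abundant Egr2 transcript, chr10:67537619-67537868 on the plus strand, is shown for its SRF and CREB motifs. Capitals mark a CArG box, the SRF site of many immediate early genes, and 2 CRE half-sites.
Egr2: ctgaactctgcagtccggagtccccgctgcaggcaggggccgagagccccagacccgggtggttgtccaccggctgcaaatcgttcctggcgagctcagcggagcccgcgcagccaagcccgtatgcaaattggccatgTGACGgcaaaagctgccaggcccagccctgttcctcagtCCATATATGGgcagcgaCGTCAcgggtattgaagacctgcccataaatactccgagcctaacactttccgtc
A CArG box occurred in 1.47% of all windows of 250 bases, and 3.90% held at least 2 CRE half-sites. The window also held 1 match to GGAAA, the core of NFAT sites, as did 55.6% of all windows.

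Egr1 on chromosome 18 was at 9.16 and 8.43 TPM in GFP + Plum, 21.6 and 20.7 TPM in T-bet + Plum, 10.5 and 9.91 TPM in GFP + GATA3, and 13.8 and 11.4 TPM in T-bet + GATA3. T-bet + Plum stood above all others, while T-bet + GATA3 was only slightly above GFP + GATA3. Egr1 rose in T-bet + Plum against GFP + Plum with a log2 FC of 1.31 ± 0.16 (edgeR FDR 0.00331). T-bet + GATA3 gave 0.49 ± 0.16 against GFP + GATA3 (edgeR FDR 0.139) and 0.65 ± 0.16 against GFP + Plum (edgeR FDR 0.0643). A longer Egr1 transcript took 1.63% ± 0.377 of Egr1 TPM with FLAG-T-bet and 2.32% ± 1.32 without it (SD, n = 4 each, two-sided exact permutation p = 0.371, adjusted p = 0.543 over 3 shares). The effect of FLAG-T-bet was not shown to depend on HA-GATA3, since the interaction of -0.83 ± 0.23 missed the threshold (edgeR FDR 1.00, unadjusted p 0.00671).

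Egr3 was close to the limit of detection. Its estimated counts were 7 and 5 in GFP + Plum, 7 and 9 in T-bet + Plum, 22 and 21 in GFP + GATA3, and 4 and 3 in T-bet + GATA3, or 0.0557 to 0.616 TPM. GFP + GATA3 was highest in both units, and T-bet + GATA3 was lowest in count but overlapped GFP + Plum in TPM. Egr3 passed the filter on low counts through both GFP + GATA3 libraries and 1 T-bet + Plum library. T-bet + GATA3 against GFP + GATA3 gave a log2 FC of -2.48 ± 0.58 (edgeR FDR 0.0480). Since Egr3 entered the test mainly through the line in which it was highest, this value is given as a description and not as support for a difference. It rests on 22 and 21 counts against 4 and 3, missed the threshold in DESeq2 and was past it in none of the fits without 1 of the 8 libraries. GFP + GATA3 against GFP + Plum gave 2.15 ± 0.54 (edgeR FDR 0.611).

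**Figure D3:**
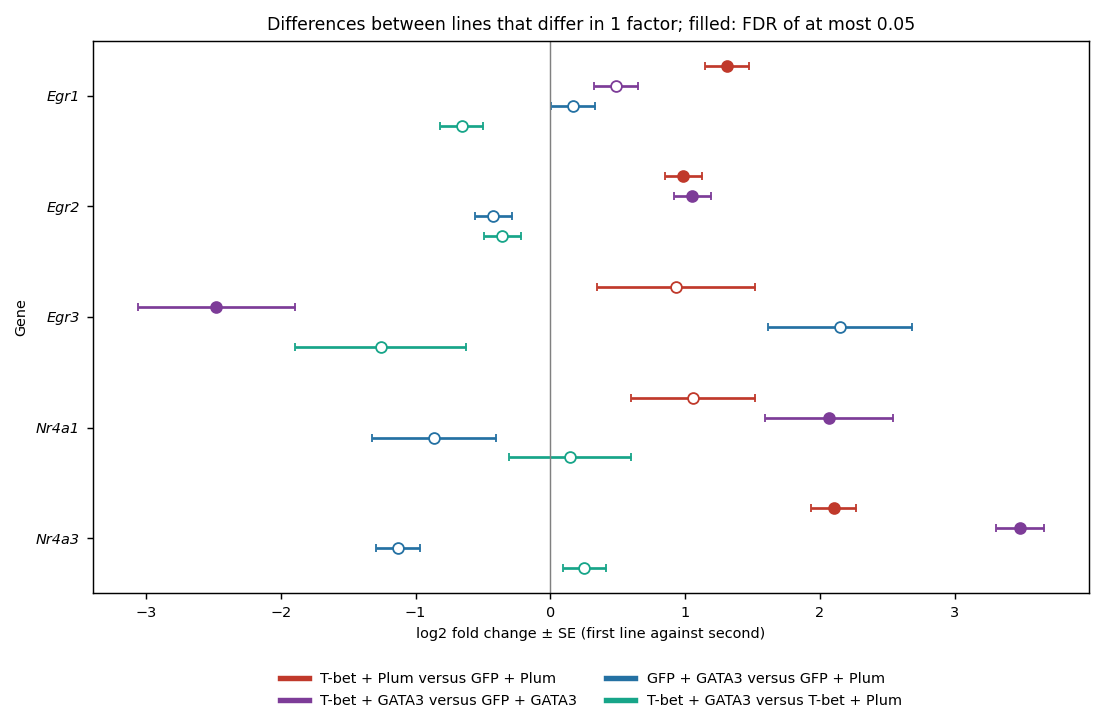
Log2 fold change ± SE of 5 genes between lines that differ in 1 introduced factor, from the edgeR fit over 8 libraries. Filled points have an FDR of at most 0.05. The filled points are the FLAG-T-bet comparisons of Egr1 (1), Egr2 (2), Nr4a1 (1) and Nr4a3 (2) to the right of 0 and Egr3 (1), on few counts, to the left, and no HA-GATA3 comparison is filled.

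By pairs of lines, T-bet + Plum against GFP + Plum called 3 of the 10 genes (Egr1, Egr2 and Nr4a3), where 6.2% of all genes were called. T-bet + GATA3 against GFP + GATA3 called Egr2, Nr4a1 and Nr4a3, all up, where 5.77% were called. Egr3 was also under the threshold there, downward, with the limit given above. T-bet + GATA3 against GFP + Plum called Egr2 and Nr4a3, where 4.87% were called, and it shares its control libraries with the first of these. With the study's further threshold of a log2 FC above 1.5 in size, the 3 comparisons kept 1, 3 (Egr3 among them) and 1 of the genes, where 3.02%, 2.85% and 2.61% of all genes passed. The averaged comparison then kept Nr4a1 and Nr4a3, where 4.5% passed. Adding HA-GATA3 to the control line called 0 of the 10 in edgeR, where 0.0203% of all genes were called. An unadjusted edgeR p below 0.05 was found for 3 of the 10 (Egr2, Egr3 and Nr4a3) and for 547 of 14791 genes. DESeq2 called 1 of the 10 (Nr4a3). Adding HA-GATA3 to the T-bet line also called 0 in edgeR, where 0.0338% were called, and 0 in DESeq2. An unadjusted edgeR p below 0.05 was found there for 2 of the 10 (Egr1 and Egr2) and for 559 genes. Averaged over T-bet states, HA-GATA3 called 0 in edgeR, where 0.0608% were called, and 0 in DESeq2. Such an edgeR p was found for 2 of the 10 and for 733 genes. The interaction called 0 in edgeR, where 0.0% of all genes were called, and 1 in DESeq2 (Nr4a3). Such an edgeR p was found for 3 of the 10 and for 381 genes. All shares of all genes in this paragraph are from edgeR, and the shares in DESeq2 are not given.

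NFATc1, NFATc2 and NFATc3 are the calcineurin-regulated NFAT factors of T cells, and their activity is set mainly by nuclear entry, which RNA levels do not measure. Nfatc3 was at 8.48 and 9.05 TPM in GFP + Plum, 7.93 and 9.27 TPM in T-bet + Plum, 10.4 and 10.3 TPM in GFP + GATA3, and 7.16 and 9.93 TPM in T-bet + GATA3. The FLAG-T-bet libraries overlapped the others, and the log2 FC with FLAG-T-bet was -0.04 ± 0.11 (edgeR FDR 0.872).
Nfatc2 was at 3.17 and 3.17 TPM in GFP + Plum, 3.73 and 6.96 TPM in T-bet + Plum, 3.27 and 4.46 TPM in GFP + GATA3, and 4.27 and 5.32 TPM in T-bet + GATA3. The FLAG-T-bet libraries overlapped the others in TPM and did not overlap them in CPM. The log2 FC with FLAG-T-bet was 0.72 ± 0.21, just short of the threshold (edgeR FDR 0.0541), and DESeq2 called it (FDR 0.017).
Nfatc1 was low throughout, at 0.56 and 0.60 TPM in GFP + Plum, 0.62 and 0.71 TPM in T-bet + Plum, 0.85 and 0.85 TPM in GFP + GATA3, and 0.87 and 0.73 TPM in T-bet + GATA3, on 21 to 52 estimated counts. The GFP + Plum libraries were the lowest. The log2 FC with FLAG-T-bet was 0.17 ± 0.21 (edgeR FDR 0.637). Nfatc1 has an upstream promoter that NFAT itself induces and a downstream promoter. All its estimated counts lay on 1 transcript from the downstream start, and the transcripts from the upstream start were listed at 0 in the 8 libraries.

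Rcan1, at chr16:92391953-92470867 on the minus strand, was at 7.27 and 7.17 TPM in GFP + Plum, 7.72 and 8.97 TPM in T-bet + Plum, 8.74 and 9.13 TPM in GFP + GATA3, and 8.40 and 6.91 TPM in T-bet + GATA3. It had the narrowest range of the 10 genes, with the highest library at 1.32 times the lowest, and the lines with and without FLAG-T-bet overlapped. Its log2 FC with FLAG-T-bet was 0.22 ± 0.14 (edgeR FDR 0.362). Rcan1 has an internal promoter with NFAT sites that calcium signals are known to induce, and its window, chr16:92400079-92400328 on the minus strand, is shown for this reason. Capitals mark the full CRE, TGACGTCA, and 3 matches to the NFAT core GGAAA on either strand.
Rcan1: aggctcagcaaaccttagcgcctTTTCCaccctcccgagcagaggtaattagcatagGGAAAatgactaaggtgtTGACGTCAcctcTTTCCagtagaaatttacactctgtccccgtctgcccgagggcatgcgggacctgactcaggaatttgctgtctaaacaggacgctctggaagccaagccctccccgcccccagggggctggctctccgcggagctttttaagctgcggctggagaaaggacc
Of all windows of 250 bases, 1.55% held the full CRE and 6.39% at least 3 NFAT cores. Transcripts from this internal start took 6.12% and 2.89% of Rcan1 TPM in GFP + Plum, 0% and 0% in T-bet + Plum, 17.3% and 0% in GFP + GATA3, and 0% and 16.8% in T-bet + GATA3. These shares rest on at most 29.2 estimated counts in a library. They showed no difference between libraries with and without FLAG-T-bet that exceeded the spread between libraries (4.21% ± 8.42 and 6.57% ± 7.55, SD, n = 4 each, two-sided exact permutation p = 0.543, adjusted p = 0.543 over 3 shares). Most Rcan1 TPM came instead from the far upstream start, whose pair of near-identical transcripts summed to between 3.94 and 6.12 TPM. How kallisto divided fragments between these transcripts is uncertain, since they share most of their sequence.

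The other genes of the pathway were read from 7 lists of 76 genes, over both GATA3 states. Their counts stand beside the 15.2% of all genes called in this comparison, 8.55% upward, and the lists are short. Of 12 genes for calcium entry and release, all tested, Orai1 rose and Atp2a3 and Itpr3 fell. Orai1, the pore of the store-operated calcium channel, was at 12.9 to 16.2 TPM without FLAG-T-bet and at 32.4 to 50.0 TPM with it (log2 FC 1.73 ± 0.13, edgeR FDR 0.000152). Atp2a3, the SERCA3 pump that returns calcium to the endoplasmic reticulum, fell by 1.07 ± 0.22 on the log2 scale (edgeR FDR 0.0137). Itpr3, an inositol trisphosphate receptor, fell by 0.66 ± 0.15 (edgeR FDR 0.0231). The Itpr3 call was lost without any 1 of 4 libraries (FDR 0.0636 to 0.0737) and the Atp2a3 call without the second T-bet + Plum library (FDR 0.0643). The Orai1 libraries with and without FLAG-T-bet did not overlap, and the median log2 FC of this list was -0.19.

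Of 9 calcineurin and calmodulin genes given here, 1 rose and 0 fell, a share below that of all genes. Ppp3cc, a calcineurin catalytic subunit, gave a log2 FC of 0.83 ± 0.19 (edgeR FDR 0.0213), a call that was lost without any 1 of 5 libraries (FDR 0.0571 to 0.0808). The median over the 9 genes was 0.12. Of 8 kinases that act against NFAT, Dyrk2 rose (0.67 ± 0.12, edgeR FDR 0.00931) and Csnk1e, which encodes casein kinase 1 epsilon, fell by 0.97 ± 0.15 (edgeR FDR 0.00351), with a median of -0.02. Among phorbol ester receptors, 8 of 9 were tested. Prkch (0.98 ± 0.20, edgeR FDR 0.0128) and Prkca (0.32 ± 0.08, edgeR FDR 0.0391), both protein kinase C genes, rose. Rasgrp4, a Ras activator, fell by 1.71 ± 0.28 (edgeR FDR 0.00561), and the median was 0.15. The Prkca call was lost under each of 5 other settings and without any 1 of the 8 libraries (FDR 0.0651 to 0.169), and the Prkch call without the second T-bet + Plum library (FDR 0.056).

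Among other family members and EGR corepressors, 6 of 8 genes were tested, Nfat5 rose and Nab1 and Nab2 fell. Nab1 and Nab2 encode proteins that bind EGR factors and repress their targets. Nab1 was at 30.6 to 45.0 TPM without FLAG-T-bet and at 16.6 to 19.1 TPM with it, and fell by 0.82 ± 0.12 (edgeR FDR 0.00325). The Nab1 groups did not overlap. Nab2 fell by 0.37 ± 0.08 (edgeR FDR 0.0217), a call that was lost without any 1 of 4 libraries (FDR 0.060 to 0.0972). Nfat5, the NFAT relative that calcineurin does not control, rose with a log2 FC of 0.87 ± 0.08 (edgeR FDR 0.000419), and the median of this list was -0.02.

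Of 12 other genes of the ERK and SRF pathway, immediate early genes among them, 4 rose and 1 (Elk4) fell. Myc (0.79 ± 0.11, edgeR FDR 0.00216), Btg2, an antiproliferative gene (1.06 ± 0.16, edgeR FDR 0.00412), Ier2 (0.53 ± 0.08, edgeR FDR 0.00472) and Junb, an AP-1 subunit (0.53 ± 0.09, edgeR FDR 0.00533), rose. Fos, at 1.65 to 3.76 TPM in the 8 libraries, gave 0.17 ± 0.29 (edgeR FDR 0.747) and did not pass. The median of this list was 0.38.

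Of 18 NFAT and EGR target genes of activated T cells, 16 were tested, 6 rose and 1 fell. Fasl, the death ligand, was at 0.503 to 0.976 TPM without FLAG-T-bet and at 5.13 to 10.7 TPM with it (log2 FC 3.30 ± 0.20, edgeR FDR 4.2e-05). Dgkz, a diacylglycerol kinase that removes the lipid PMA mimics, was at 44.2 to 65.5 TPM without and at 128 to 203 TPM with it (1.75 ± 0.12, edgeR FDR 6.6e-05). Neither gene's groups overlapped. Il2, the T cell growth factor, rose from 78.6 to 178 TPM without FLAG-T-bet to 233 to 488 TPM with it (1.65 ± 0.17, edgeR FDR 0.000673). Tnf gave 0.77 ± 0.09 (edgeR FDR 0.000842), although its libraries overlapped, with T-bet + GATA3 at 209 and 230 TPM and GFP + Plum at 242 and 206 TPM. The median of the list was 0.15. The T cell markers Lck (1.52 ± 0.28, edgeR FDR 0.00868), Zap70 (0.71 ± 0.08, edgeR FDR 0.000801) and Cd3d (0.50 ± 0.09, edgeR FDR 0.00775) also rose, 3 of the 7 tested. The myeloid marker Lyz2, at 0.0567 to 0.689 TPM, gave a log2 FC of -2.58 ± 0.47 (edgeR FDR 0.00837). The 4 myeloid markers together had at most 4 counts in a library with FLAG-T-bet. Lyz2 therefore passed the filter on low counts only through libraries without FLAG-T-bet, where it was higher. Its value is given as a description and not as support for a difference. The part of these marker differences in the results above was not tested.

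**Figure D4:**
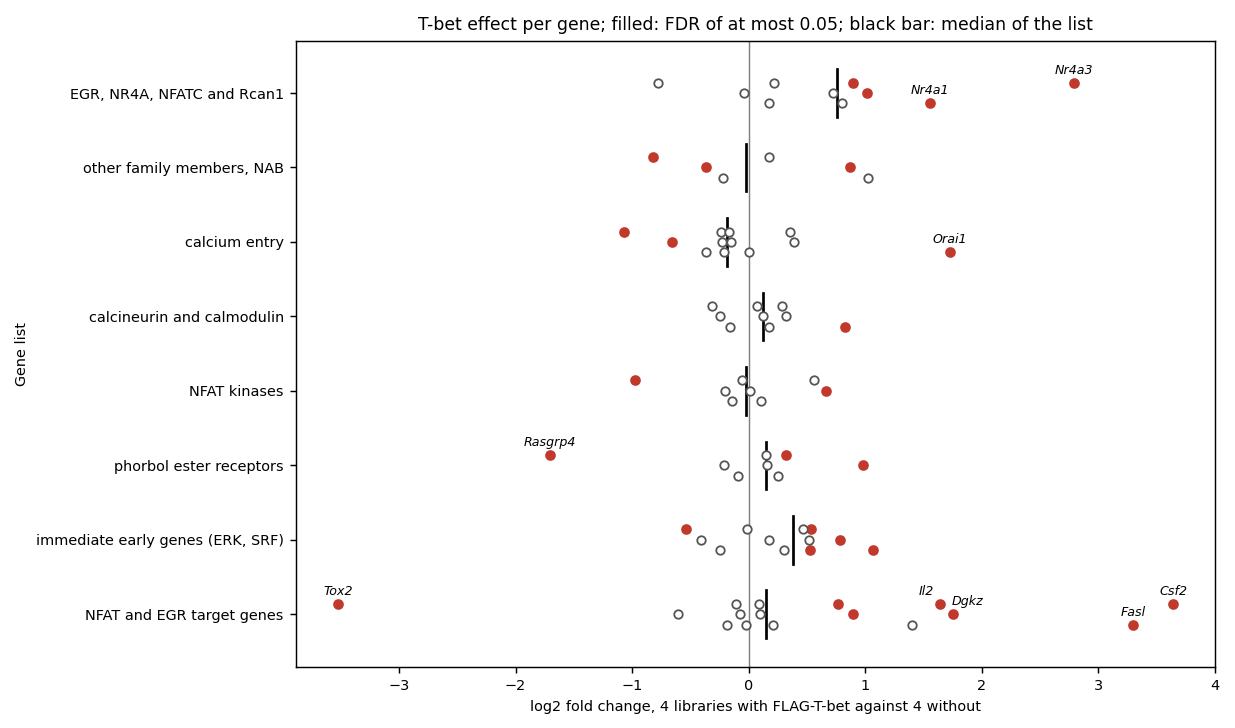
Log2 fold change between the 4 libraries with FLAG-T-bet and the 4 without it, for each tested gene of the 10 and of the other 7 lists. Filled points have an FDR of at most 0.05, black bars are medians and names mark changes over 1.5 in size. The median of the 10 genes is 0.76 and those of the other lists lie between -0.19 and 0.38.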

How the data were processed

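Poly(A)+ RNA of 8 EL4 libraries was sequenced as paired ends. The authors used FastQC for read quality, Trim Galore for adapters and kallisto for quantification (versions not given in the sources used here). The methods name Gencode M20, whereas the file names carry M18. The deposited files give estimated counts, which are not normalised, and TPM per transcript (mm10). The deposited TPM are scaled to the library total.

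Both were summed per gene, and estimated counts were rounded. edgeR 4.0.16 (TMM, filterByExpr, quasi-likelihood F test, Benjamini-Hochberg over 14791 genes) was run in R 4.3.3 as 1 fit over the 4 lines, with 9 comparisons. The filter asked for about 0.663 CPM in 2 libraries, and all 10 genes passed. Calls had an FDR of at most 0.05. An SE is the size of the log2 FC over the square root of F. Totals of 8038565 to 16003519 counts make 3 counts equal 0.187 to 0.373 CPM, for counting error only. Scripts were tested on simulated data. Positions come from Gencode M21. Alternatives were DESeq2 1.42.0, RLE, library size alone, no filter, at least 10 counts in every library, length offsets, a replicate block, each library left out, the 4 libraries of a comparison alone and a log2 FC above 1.5.

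The 10 genes and the lists were chosen with earlier results of these data known; 1 further list gene is not reported here. Named genes of a list were at most 4 of those called in any comparison, largest F of the 4-line test first; marker genes and the genes given for contrast (Fos, Elk4) were added after values were seen. Motif windows are the RefSeq entry nearest to the start of the most abundant transcript, or for Rcan1 to its internal start. For Nr4a2 and Nr4a3 the only entry lies at another annotated start.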

Additional observations from a re-analysis of the deposited data

Results flagged for a closer look

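For 2 genes, both libraries of a line moved in opposite directions when the same factor was added on different backgrounds. For Egr1, adding HA-GATA3 gave a log2 FC of 0.17 ± 0.16 without FLAG-T-bet and -0.66 ± 0.16 with it, and the libraries did not overlap in either pair. The difference between these effects was -0.83 on the log2 scale and missed the threshold when tested as the interaction (edgeR FDR 1.00).

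For Egr3, adding FLAG-T-bet gave 0.93 ± 0.58 without HA-GATA3 and -2.48 ± 0.58 with it. Equally, adding HA-GATA3 gave 2.15 ± 0.54 without FLAG-T-bet and -1.26 ± 0.63 with it. These are the same interaction, -3.41 on the log2 scale, which also missed the threshold (edgeR FDR 1.00). No Egr3 library had more than 22 estimated counts. The flag asks only that the libraries of 2 pairs do not overlap, which is little to ask with 2 libraries per line.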

How the results depend on the processing

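Among the 10 genes, calls numbered 3 for any difference between the 4 lines, 3 for T-bet + Plum and 2 for T-bet + GATA3 against GFP + Plum, 4 for T-bet + GATA3 against GFP + GATA3 (Egr3 included), and 4 for the averaged T-bet effect. Without the filter on low counts these became 6, 5, 5, 4 and 5, and the counts for GFP + GATA3 against GFP + Plum, the averaged GATA3 effect and the interaction went from 0 to 2, 1 and 2. The share of all genes called without the filter, or under any other fit named in this section, is not given. These counts therefore do not show whether the 10 genes changed more than other genes did. DESeq2 gave 1 for GFP + GATA3 against GFP + Plum and 1 for the interaction, both Nr4a3. With the threshold of 1.5 on the log2 FC, T-bet + Plum and T-bet + GATA3 against GFP + Plum each kept 1 and the averaged T-bet effect 2. Library size alone, length offsets and the 4 libraries alone each left 1 for T-bet + GATA3 against GFP + Plum. Leaving out 1 library at a time gave 1 to 2 there, 1 to 3 for T-bet + GATA3 against GFP + GATA3, 2 to 3 for T-bet + Plum against GFP + Plum, 3 to 5 for the averaged T-bet effect and 3 to 4 for any difference.

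The replicate numbers were not taken to pair the libraries, since deviations of same-numbered libraries correlated at r between -0.0455 and 0.302 and no label gives a shared day. With the number as a replicate block, the counts were 5 for any difference, 5 for T-bet + Plum, 1 for GFP + GATA3 and 4 for T-bet + GATA3 against GFP + Plum. The share of all genes called with the block is not given either.

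Of called values of the 10 genes, 114 of 120 held under other settings, and 103 of 128 with 1 library left out. For the other list genes 133 of 138 and 137 of 160 held. Signs turned only for values near 0 or on few counts: Nr4a1 in T-bet + GATA3 against T-bet + Plum (-0.38 to 0.52), the averaged T-bet effect on Nfatc3 (-0.14 to 0.030), the Egr2 interaction (-0.094 to 0.21) and the Rcan1 internal start share (-6.57 to 1.21 points), all with 1 library left out. The Nr4a3 share difference ranged from 5.52 to 9.29 points and that of Egr1 from -1.28 to -0.27 points. The cause of these changes was not tested. Depth limits Egr3 and Nr4a2, with at most 22 and 14 counts in a library.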

Other observations

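Across the 8 libraries, the protein-coding genes whose log2 CPM most resembled the mean of the 3 NR4A genes were Cd320, RP24-315D19.2 and Uri1, each with a Pearson r of 0.984. For the mean of the 3 EGR genes they were Vmn1r12 (r = 0.921), Fam206a (0.917) and Ndufa7 (0.913), of which Vmn1r12 never exceeded 0.338 TPM. Each mean gave its genes equal weight, including Egr3 and Nr4a2, which had at most 22 and 14 counts in a library. The points share libraries and lines, so these values are a description over 8 libraries without a test.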
